A study of Homo sapiens with 4 samples.

Results

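In MV4-11 cells, knockdown of CEBPG was accompanied by opposite changes among the genes that fold and inspect proteins in the endoplasmic reticulum (ER). CALR, which encodes the lectin chaperone calreticulin, averaged 1502 ± 90.3 FPKM in control cells with sh-NC and 530 ± 3.98 FPKM in cells with sh-CEBPG#3 (SD, n = 2 each), which is 35.3% of the control level. Of the other 24 genes with a folding role 14 were higher, among them the abundant HSP90B1, HSPA5, PDIA6 and PPIB. Another 3 were lower, among them the abundant ERP29 and PDIA3, while P4HB and CANX, also abundant, were not called. Of all genes tested 18.5% were higher and 23.8% lower. The 46 genes described here are chaperones, disulfide enzymes, prolyl isomerases, translocon subunits and genes of ER-associated degradation (ERAD, the removal of misfolded proteins to the proteasome). They were found by their symbols among the 16490 genes of the table that have values, and all 46 were listed. The list was chosen by gene symbol after results of the same comparison were known, and that choice already set CALR against the other chaperones. All differences between the groups are therefore given as descriptions, and a gene is named lower or higher as called by a fit over all genes.

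MV4-11 is an established human acute myeloid leukemia (AML) cell line with monocytic features. RNA-seq libraries came from 2 samples with CEBPG present, infected with the control hairpin sh-NC, and from 2 samples with CEBPG knocked down by the hairpin sh-CEBPG#3. In the study's methods the hairpins against CEBPG were carried by the lentiviral vector pLKO.1-puro, and infected cells were selected with puromycin. The vector of the control hairpin is not stated there. The knockdown rests on 1 hairpin in 1 cell line, and no source used here says whether libraries with the same hairpin were infected separately, so the spread between them may be technical.

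Calreticulin and its membrane-bound relative calnexin (CANX) bind proteins that carry a trimmed sugar chain, and they pass them to the disulfide isomerase PDIA3. UGGT1 adds back a glucose to proteins that are not yet folded, which returns them to the cycle. BiP (HSPA5) and GRP94 (HSP90B1) fold proteins independently of sugars, and the unfolded protein response (UPR), led by the sensors IRE1 (ERN1), PERK (EIF2AK3) and ATF6, raises many of these genes together when unfolded proteins gather. Calreticulin also stores calcium, helps to load peptides on MHC class I, and is mutated in some myeloproliferative neoplasms.

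The UPR acts largely through the ER stress response element (ERSE), in which CCAAT is followed after 9 bases by CCACG, and through the shorter ERSE-II, which has ATTGG, any base and CCACG. Both were searched on both strands in the 250 bases before each annotated start in the RefSeq promoters of GRCh38.p14. A gene can have several such starts, some of them inside the span of the gene. The table had 55 windows for 43 of the members, and CCAAT boxes, which are part of the ERSE, were counted as well. The ERSE was found in 0.0740% of all 35116 windows and in 8 of the 55 member windows, and the ERSE-II in 0.0513% of all windows and 3 of the member windows. The elements of CANX and PDIA6 lie before starts inside the gene. CANX spans 179678656 to 179731641 of chromosome 5, and PDIA6 10783391 to 10837712 of chromosome 2. The members with an ERSE are shown because CALR is among them, each written in the direction of the element with its defining letters in capitals.
CALR, chr19:12938384-12938402: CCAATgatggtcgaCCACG
CANX, chr5:179698778-179698796: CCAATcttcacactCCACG
HSPA5, chr9:125241391-125241409: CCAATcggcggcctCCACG
HSP90B1, chr12:103930216-103930234: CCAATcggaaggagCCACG
HSP90B1, chr12:103930321-103930339: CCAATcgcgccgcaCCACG
PDIA6, chr2:10812853-10812871: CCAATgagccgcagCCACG
CRELD2, chr22:49918554-49918572: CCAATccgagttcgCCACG
ERO1B, chr1:236282183-236282201: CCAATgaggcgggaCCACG

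The ERSE-II was found before HERPUD1 (ATTGGGCCACG), before HYOU1 at 2 places (ATTGGACCACG) and before SDF2L1 (ATTGGTCCACG). Of the 10 genes with either element, 7 were called higher in sh-CEBPG#3 cells, CALR was called lower, and CANX and ERO1B were not called. Among the 43 members with a window 18 were called higher, and among all genes tested 18.5%. The 9 genes other than CALR had a median log2 fold change of 0.44, from -0.11 to 0.72. Other letters searched were TGACGTGG, in 4 of the 55 member windows and 0.612% of all windows, TGATGNAA, a form of the site that C/EBP and ATF factors share, in 1 member window (HERPUD1) and 3.14% of all windows, and the C/EBP palindrome TTGCGCAA, in 0 member windows and 0.131% of all windows. A CCAAT box stood in 39 of the 55 member windows and 32.0% of all windows. A match here is a match of letters and no measure of binding.

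The promoters of CALR and PPIB, the members with the largest decrease and the largest increase, and of HSPA5, a textbook target of the UPR that was added after the values were seen, follow from 250 bases before the start up to it. Capitals mark the ERSE, and none of the elements above other than the CCAAT box was found in the PPIB window.
CALR, plus strand, chr19:12938359-12938608: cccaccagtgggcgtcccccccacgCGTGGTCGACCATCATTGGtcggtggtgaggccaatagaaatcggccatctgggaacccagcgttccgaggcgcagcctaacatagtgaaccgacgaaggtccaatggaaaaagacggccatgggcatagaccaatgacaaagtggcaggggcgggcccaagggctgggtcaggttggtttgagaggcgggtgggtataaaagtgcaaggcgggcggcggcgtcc
PPIB, minus strand, chr15:64163023-64163272: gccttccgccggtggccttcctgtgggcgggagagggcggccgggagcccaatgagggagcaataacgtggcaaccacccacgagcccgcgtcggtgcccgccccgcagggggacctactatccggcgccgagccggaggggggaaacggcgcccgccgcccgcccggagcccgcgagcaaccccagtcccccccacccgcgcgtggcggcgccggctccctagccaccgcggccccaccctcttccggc
HSPA5, minus strand, chr9:125241344-125241593: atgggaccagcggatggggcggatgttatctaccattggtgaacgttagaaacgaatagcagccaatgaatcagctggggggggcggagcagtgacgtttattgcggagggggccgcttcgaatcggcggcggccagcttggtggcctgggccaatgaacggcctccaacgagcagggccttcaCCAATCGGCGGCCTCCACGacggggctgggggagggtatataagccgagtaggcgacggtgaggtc

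The deposited values are FPKM (fragments scaled to exon length and to the mapped reads of a library), so levels of different genes can be set beside each other. The FPKM of a gene's RefSeq rows were summed in each library. The FPKM totals of the libraries ran from 364353 to 389766, and their depth in reads is unknown. CEBPG itself had 30.4 and 33.6 FPKM in the control libraries, against 19.2 and 17.1 FPKM in the knockdown libraries, 56.8% of the control mean. All 9 markers fixed for a myeloid or leukemic cell were above 1 FPKM in every library, and their summed level was 896 to 975 FPKM in sh-NC cells and 3382 to 3555 FPKM in sh-CEBPG#3 cells, most of it from LYZ. The markers did not move together, since LYZ, CSF1R, MPO, CD33 and SPI1 were called higher, MEIS1 (-0.87) and HOXA9 (-0.36) lower, and FLT3 (-0.14) and PTPRC (0.21) were not called. Of 18 markers of other cell types, 4 had values, and only KRT8 and KRT18 were above 1 FPKM in every library, with sums over the 4 of 12.3 to 13.3 and 15.0 to 16.1 FPKM. The part of these marker changes in the results on ER genes was not tested. In bulk RNA fewer cells expressing a gene and less RNA per cell cannot be told apart.

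Genes with a mean of 0.5 FPKM or more entered limma on log2(FPKM + 1), and a gene was called when its Benjamini-Hochberg adjusted p over all 12142 of these genes was below 0.05. The smallest p that an exact two-sided permutation test can give for 2 against 2 libraries is 0.333, so calls rest on the variance that limma shares across genes. All 46 members passed the filter. Upon knockdown 9 members were called lower, where 23.8% of all genes tested were, and 18 were called higher, where 18.5% of all genes tested were, which leaves 19 not called. In either direction 42.2% of all genes were called. The groups did not overlap for 35 of the 46 members, against 71.7% of all genes. CALR was the only member called with an absolute log2 fold change above 1, as were 3.37% of all genes, on this scale. With a pseudocount of 0.1 or 0.01 in place of 1, DERL3 was past it as well (-1.15 and -1.19). The members had a median log2 fold change of 0.14 and all genes one of -0.04. When only the most abundant RefSeq row of each gene was tested among all rows, 3 members were lower and 9 higher, and CALR was still lower. Calls dropped over all genes in that fit too, to 5.38% lower and 5.34% higher of 11992 genes.

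**Figure D1:**
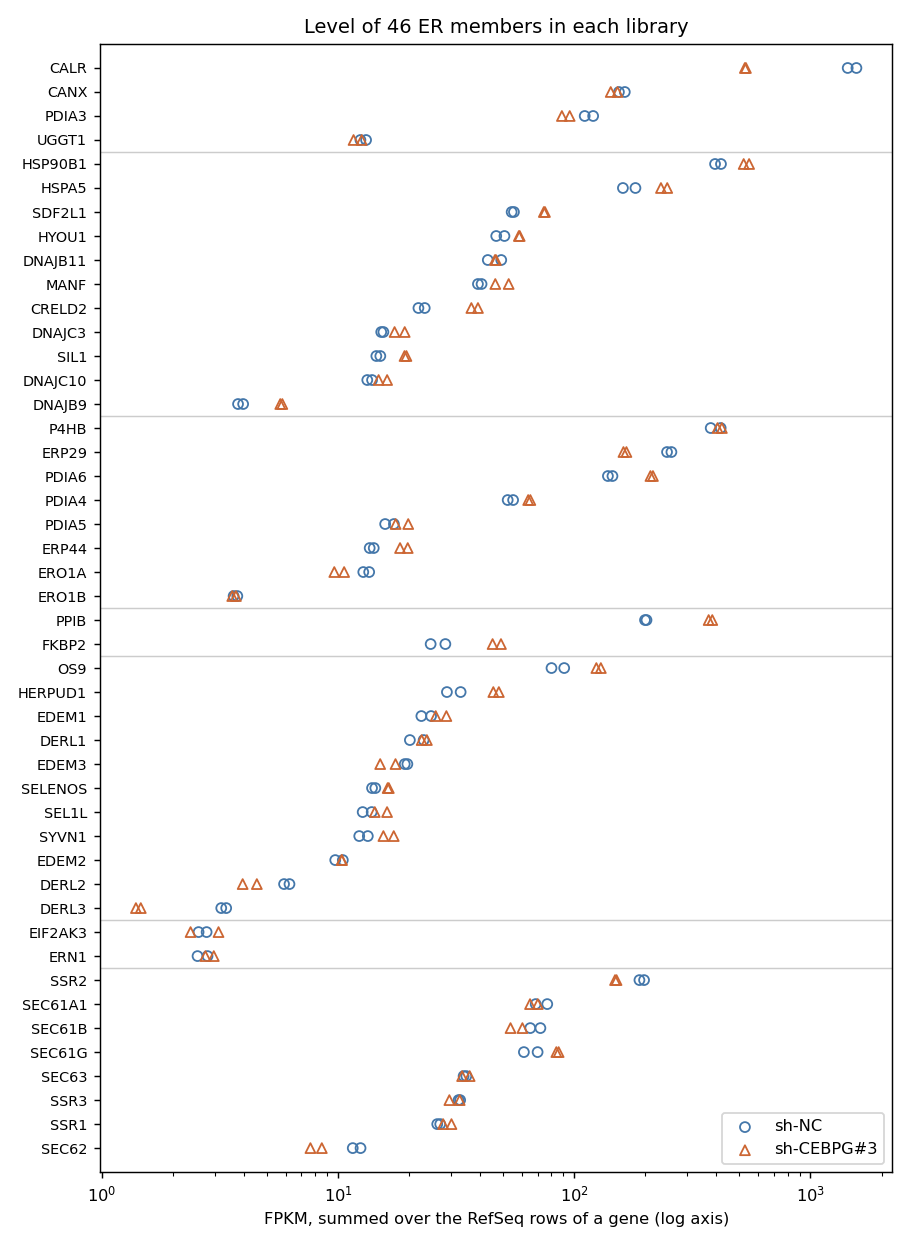
Level of each of the 46 members in each library, as FPKM on a log axis; circles are the 2 sh-NC libraries, triangles the 2 sh-CEBPG#3 libraries, and lines separate the roles. CALR lay highest in the sh-NC libraries, at 1438 and 1565 FPKM, and is displaced to 533 and 527 FPKM in the knockdown libraries.

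The lectin cycle held the member with the greatest decrease and no member that was called higher. CALR spans 12938609 to 12944489 of chromosome 19 (hg38, plus strand), has 9 exons in its canonical GENCODE transcript, and is listed by 1 RefSeq row (NM_004343). It had 1438 and 1565 FPKM in the control libraries, against 533 and 527 FPKM in the knockdown libraries. Both knockdown libraries lay far below both controls, and they differed from each other by less than the controls did. The log2 fold change was -1.50 (standard error 0.07). Within each library CALR ranked 47 and 40 by level among all 16490 genes in sh-NC cells, and 105 and 104 in sh-CEBPG#3 cells. By change of log2(FPKM + 1) it was at position 25 from the lowest of the 12142 genes tested. That scale shrinks the changes of genes at low level, so the position depends on the pseudocount. CALR fell by 971 FPKM, more than any other gene with values.

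The partners of CALR in the cycle changed much less. CANX had 155 and 164 FPKM in sh-NC cells and 152 and 143 FPKM in sh-CEBPG#3 cells. These ranges stood next to each other without overlap, and the log2 fold change of -0.11 (standard error 0.07) was not called, although it was with equal totals (-0.13) or quantile normalization (-0.11). PDIA3 had 111 and 120 FPKM in sh-NC cells and 95.6 and 88.6 FPKM in sh-CEBPG#3 cells, a log2 fold change of -0.32 (standard error 0.08) that was called lower, but not without sh-CEBPG#3 replicate 2 (-0.27). In the fit of the most abundant RefSeq rows, where calls dropped over all genes, PDIA3 (-0.32) was not called either. UGGT1 had 12.4 and 13.1 FPKM against 12.6 and 11.6 FPKM, and the groups overlapped. Its rows differed within a group, since the coding row NM_020120 had 6.39 and 10.6 FPKM and the non-coding row NR_027671 6.20 and 1.08 FPKM in the knockdown libraries. CALR thus had 9.30 and 9.57 times the FPKM of CANX in the control libraries, against 3.50 and 3.70 times in the knockdown libraries.

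Among the 25 members that fold proteins (the lectin cycle, the HSP70 and HSP90 system, disulfide enzymes and prolyl isomerases), CALR made up 39.8% and 40.3% of the summed FPKM in the control libraries, against 16.3% and 16.7% in the knockdown libraries. The other 24 members summed to 2173 and 2316 FPKM in sh-NC cells and to 2730 and 2637 FPKM in sh-CEBPG#3 cells, so that their sum was higher in both knockdown libraries. The sum of all 25 was nevertheless lower, at 3611 and 3882 FPKM against 3263 and 3165 FPKM. Of the 24 others, 14 were called higher and 3 lower, where 18.5% and 23.8% of all genes tested were. The median log2 fold change of the 24 others was 0.26. CALR and HSP90B1 were level in the knockdown libraries, where CALR was the lower in replicate 1 and the higher in replicate 2, and the ratio of CALR to HSP90B1 went from 3.64 and 3.75 to 0.969 and 1.01. Relative to HSPA5 the ratio went from 8.95 and 8.62 to 2.15 and 2.27.

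**Figure D2:**
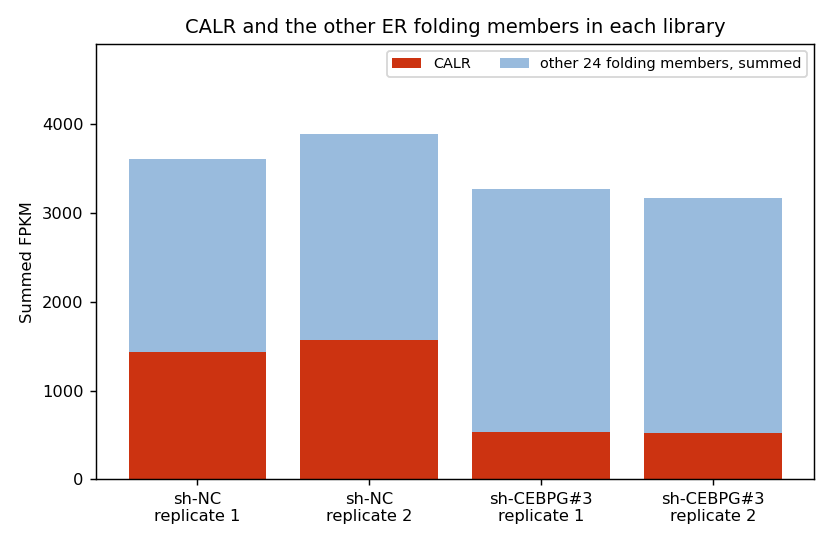
Summed FPKM of the 25 folding members in each of the 4 libraries, with CALR in red and the other 24 in blue. The red part shrinks from 1438 and 1565 FPKM to 533 and 527 FPKM, while the blue part grows from 2173 and 2316 FPKM to 2730 and 2637 FPKM.

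Of the 11 members of the HSP70 and HSP90 system, 9 were called higher and 0 lower, where 18.5% of all genes were higher. Some of these calls were lost when a library was left out or when only the most abundant RefSeq row was tested. HSPA5, the HSP70 of the ER lumen, had 161 and 182 FPKM in sh-NC cells and 248 and 233 FPKM in sh-CEBPG#3 cells, and both knockdown libraries lay above both controls. Its log2 fold change was 0.49 (standard error 0.08). HSP90B1, the HSP90 of the ER, had 395 and 418 FPKM in sh-NC cells and 550 and 522 FPKM in sh-CEBPG#3 cells, a log2 fold change of 0.40 (standard error 0.07) with no overlap. Without sh-CEBPG#3 replicate 1 it was 0.36 and no longer called.

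The other members grouped with this system, helpers of BiP and CRELD2, were mostly higher too. CRELD2, a secreted UPR target with disulfide isomerase activity, had 21.9 and 23.3 FPKM in sh-NC cells and 39.1 and 36.7 FPKM in sh-CEBPG#3 cells, with the largest log2 fold change of this system, 0.72 (standard error 0.08). SDF2L1, a partner of ERdj3 in a chaperone complex, had 54.3 and 55.5 FPKM against 74.3 and 75.2 FPKM, and the spread within each group was small beside the difference. DNAJB9, the co-chaperone ERdj4, was the least abundant of them, at 3.77 and 3.96 FPKM against 5.81 and 5.69 FPKM. The other calls were the nucleotide exchange factors HYOU1 (0.26) and SIL1 (0.36), the BiP co-factor MANF (0.31) and the co-chaperone P58IPK (DNAJC3, 0.23). DNAJC3 lost its call whichever library was left out (0.16 to 0.30), and its groups of 15.2 and 15.6 against 19.1 and 17.3 FPKM did not overlap. HYOU1 was not called without sh-CEBPG#3 replicate 1 (0.27) or replicate 2 (0.26), nor MANF without replicate 2 (0.21). HYOU1 (0.26) and DNAJC3 (0.23) were also not called in a fit blocked on the replicate number. Calls dropped over all genes in the fit of the most abundant RefSeq rows. HYOU1 (0.20), SIL1 (0.28), DNAJB9 (0.47), DNAJC3 (0.23) and MANF (0.31) were not called there, while HSPA5, HSP90B1, SDF2L1 and CRELD2 were. DNAJB11, the co-chaperone ERdj3, had 43.0 and 49.1 FPKM against 46.6 and 46.2 FPKM, with the knockdown libraries between the controls. The reductase DNAJC10 had 13.3 and 13.9 FPKM against 16.1 and 14.8 FPKM and was not called, although it was with quantile normalization (0.20).

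Disulfide enzymes changed in both directions, with 3 called higher, 2 lower and 3 not called. Among all genes tested 18.5% were called higher and 23.8% lower. PDIA6, an isomerase that also acts on the UPR sensors, had 139 and 145 FPKM in sh-NC cells and 215 and 210 FPKM in sh-CEBPG#3 cells, a log2 fold change of 0.58 (standard error 0.07). ERP44, which retains unassembled and thiol-bearing proteins, was 0.43 higher on the log2 scale, and PDIA4, a larger isomerase of the same family, 0.26. The call of PDIA4 was lost without either sh-CEBPG#3 library (0.25 and 0.28) and in the blocked fit (0.26). ERP29, which has the fold of the family without its active-site cysteines, fell from 247 and 258 FPKM to 162 and 166 FPKM, a log2 fold change of -0.62 (standard error 0.07). ERO1A, the oxidase that recharges the isomerases, fell from 12.8 and 13.5 FPKM to 10.6 and 9.64 FPKM, a change of -0.35 that was not called without sh-CEBPG#3 replicate 2 (-0.29). In the fit of the most abundant RefSeq rows, where calls dropped over all genes, ERP44 (0.43), PDIA4 (0.26) and ERO1A (-0.35) were not called. PDIA6 and ERP29 kept their calls in it. P4HB, the founding isomerase and a subunit of prolyl hydroxylase, was abundant at 378 and 417 FPKM against 422 and 404 FPKM, and the groups overlapped. PDIA5 had 17.2 and 15.8 FPKM against 19.8 and 17.5 FPKM, and ERO1B between 3.56 and 3.74 FPKM in all libraries.

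Both prolyl isomerases were called higher, where 18.5% of all genes tested were, and they had the largest increases of all members. PPIB, or cyclophilin B, had 199 and 202 FPKM in sh-NC cells and 384 and 371 FPKM in sh-CEBPG#3 cells, so that 188% of the control level was reached, and the log2 fold change was 0.91 (standard error 0.07). FKBP2 had 24.7 and 28.5 FPKM in sh-NC cells and 45.1 and 48.9 FPKM in sh-CEBPG#3 cells, a log2 fold change of 0.80 (standard error 0.09). Most of this lay in its row NM_004470, with 20.3 and 19.7 FPKM against 40.3 and 41.0 FPKM, while the small row NM_057092 had 0.728 and 8.39 FPKM in the controls. The ratio of CALR to PPIB fell from 7.21 and 7.74 to 1.39 and 1.42.

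**Figure D3:**
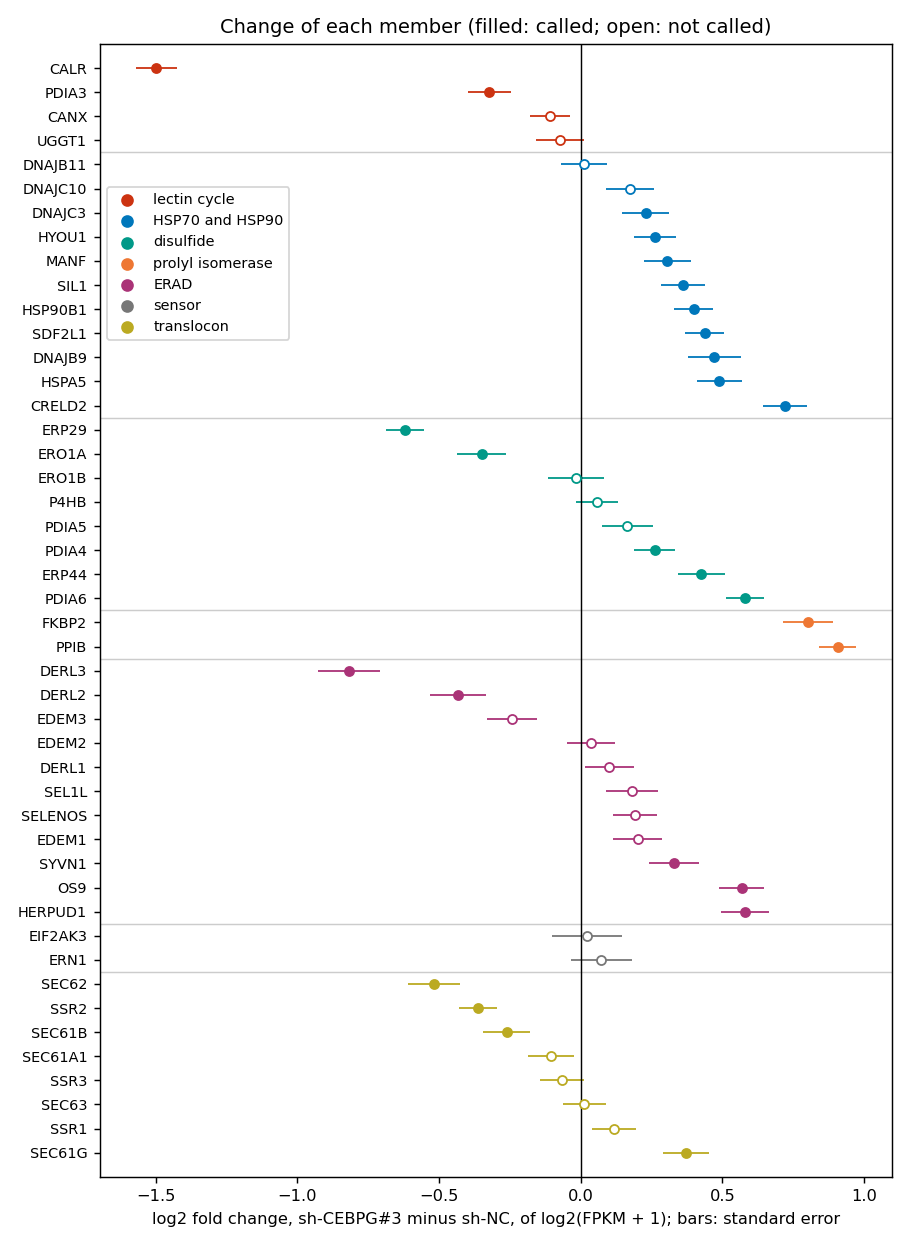
Log2 fold change of each member, sh-CEBPG#3 minus sh-NC, with its standard error as a bar, grouped by role; filled points were called at an adjusted p below 0.05 in limma over all genes and open points were not. CALR stands alone at -1.50, and 9 of the 11 members of the HSP70 and HSP90 system are filled and right of 0. Of all genes tested 18.5% were called higher.

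The 11 ERAD members did not share a direction, with 3 called higher, 2 lower and 6 not called. Among all genes tested 18.5% were called higher and 23.8% lower. HERPUD1, which organises the retrotranslocation complex, had 28.9 and 33.0 FPKM in sh-NC cells and 47.9 and 45.4 FPKM in sh-CEBPG#3 cells, a log2 fold change of 0.58 (standard error 0.08). OS9, a lectin that hands glycoproteins to that complex, had 80.1 and 90.7 FPKM against 130 and 124 FPKM over its 7 rows, and its change was 0.57 (standard error 0.08). The ubiquitin ligase SYVN1 (HRD1) had 12.3 and 13.4 FPKM against 17.2 and 15.6 FPKM, a change of 0.33 that was not called without sh-CEBPG#3 replicate 1 (0.26). When only its most abundant RefSeq row was tested, SYVN1 changed by 0.15 and was not called. Its cofactor SEL1L had 12.7 and 13.9 FPKM against 16.1 and 14.3 FPKM and was not called, although it was with quantile normalization (0.21).

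The Derlins, membrane proteins of the retrotranslocation channel, included both ERAD members that were lower. DERL3 had 3.202 and 3.36 FPKM in sh-NC cells and 1.39 and 1.46 FPKM in sh-CEBPG#3 cells, 43.5% of the control level. Its log2 fold change of -0.82 (standard error 0.11) was the second lowest of the 46, and the pseudocount of 1 shrinks a change at this level. DERL2 had 6.23 and 5.91 FPKM against 4.53 and 3.95 FPKM, a change of -0.43 with no overlap. Its row NM_001304777 had 1.31 and 0.458 FPKM in sh-NC cells and 0 FPKM in both sh-CEBPG#3 libraries. In the fit of the most abundant RefSeq rows, where calls dropped over all genes, DERL3 (-0.59) and DERL2 (-0.26) were not called. DERL1 had 20.1 and 23.0 FPKM against 23.8 and 22.6 FPKM, and the groups overlapped. The mannosidase-like genes EDEM1 (0.20), EDEM2 (0.04) and EDEM3 (-0.24) and SELENOS (0.19), which anchors the p97 ATPase to the complex, were not called. EDEM1, EDEM3 and SELENOS were called with equal totals (0.18, -0.27 and 0.17) and with quantile normalization (0.21, -0.22 and 0.22). Without sh-NC replicate 2, EDEM1 (0.27) and EDEM3 (-0.26) were called, and EDEM3 also was without sh-CEBPG#3 replicate 1 (-0.34).

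Neither UPR sensor among the members was called. ERN1 had 2.54 and 2.80 FPKM in sh-NC cells and 2.98 and 2.74 FPKM in sh-CEBPG#3 cells. EIF2AK3 had 2.78 and 2.57 FPKM against 3.12 and 2.37 FPKM. The groups overlapped for both genes, and the log2 fold changes were 0.07 (standard error 0.11) and 0.02 (standard error 0.12).

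Of the 8 translocon members, which form or assist the channel for nascent proteins, 3 were called lower, 1 higher and 4 not called. Over all genes tested, 23.8% were called lower and 18.5% higher. SEC62, a receptor for short secretory proteins that also acts in ER turnover, fell from 11.5 and 12.4 FPKM to 8.53 and 7.64 FPKM, a log2 fold change of -0.52 (standard error 0.09). SSR2, a subunit of the translocon-associated protein complex, fell from 189 and 197 FPKM to 151 and 149 FPKM, a change of -0.36 (standard error 0.07). SSR1 (0.12) and SSR3 (-0.07) of the same complex were not called. The small channel subunits went apart, since SEC61G had 61.2 and 70.0 FPKM against 85.9 and 84.0 FPKM (0.37 higher on the log2 scale) and SEC61B 65.1 and 71.9 FPKM against 53.7 and 60.3 FPKM (-0.26). SEC61B was not called without sh-NC replicate 2 (-0.19) or sh-CEBPG#3 replicate 1 (-0.18), nor in the blocked fit (-0.26). The pore subunit SEC61A1 had 68.7 and 76.9 FPKM against 70.1 and 65.0 FPKM, and SEC63, which recruits BiP to the channel, between 33.5 and 36.1 FPKM in all libraries. SEC61A1 was called with equal totals (-0.13). SEC62 (-0.52), SEC61B (-0.26) and SEC61G (0.38) were not called in the fit of the most abundant RefSeq rows, while SSR2 was.

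Further genes of the same compartment came from lists kept apart from the members. Of 17 UPR factors tested, 5 were called higher and 4 lower, with a median log2 fold change of -0.03. Over all genes tested, 18.5% were called higher and 23.8% lower. ATF3 (0.41), CREB3L2 (0.33), ATF6B (0.30), NFYC (0.24) and RTCB were higher, and PPP1R15A (-0.32), PPP1R15B (-0.25), NFYB (-0.35) and NFYA lower. ATF6 (0.05), XBP1, ATF4, DDIT3 and TRIB3 were among the 8 not called. Apart from RTCB and NFYA these factors were picked out after their values were seen. ATF4 had 259 and 269 FPKM in sh-NC cells and 269 and 256 FPKM in sh-CEBPG#3 cells. XBP1 had 197 and 204 FPKM against 195 and 180 FPKM as the sum of its listed rows, which does not separate its spliced form. The 2 largest changes were those of RTCB, the ligase that joins spliced XBP1, at 0.52 (standard error 0.11), and of NFYA, a subunit of the factor that binds CCAAT, at -0.45 (standard error 0.09). NFYA had 8.70 and 9.95 FPKM in sh-NC cells and 6.48 and 6.64 FPKM in sh-CEBPG#3 cells.

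Of 36 further folding and glycan-trimming genes tested, 10 were higher and 6 lower, with a median of 0.08. Beside this list and those that follow, 18.5% of all genes tested were called higher and 23.8% lower. TOR1B, an AAA ATPase of the ER and nuclear envelope, rose from 9.72 and 10.6 FPKM to 28.9 and 27.9 FPKM, and TMX4, a membrane-bound thioredoxin-like protein, fell from 4.78 and 5.11 FPKM to 2.26 and 1.94 FPKM. Of 26 further ERAD genes, 8 were higher and 1 lower, with a median of 0.09. ERLIN2 (0.72) and SELENOK (0.46) had the largest changes among them. Of 20 genes of targeting, signal peptidase and translocon, 6 were higher and 3 lower, with a median of 0.08, and the subunits of the signal recognition particle receptor moved apart. SRPRB fell from 27.8 and 29.0 FPKM to 14.2 and 12.9 FPKM, while SRPRA rose from 45.9 and 51.3 FPKM to 75.4 and 69.1 FPKM. Of 11 oligosaccharyltransferase genes, 4 were higher and 1 lower, with DDOST (0.55) and the catalytic STT3B (0.57) at the top and a median of 0.11.

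Calreticulin and PDIA3 work with tapasin in the loading of MHC class I. Of 9 genes tested from a wider list around MHC class I loading, which also holds TAPBPL, ERAP1 and ERAP2, 6 were called higher and 0 lower. Their median was 0.66, and of all genes tested 18.5% were called higher and 23.8% lower. B2M, the light chain of MHC class I, rose from 283 and 298 FPKM to 652 and 632 FPKM, and the peptide transporter subunit TAP1 from 1.21 and 1.47 FPKM to 3.84 and 4.17 FPKM. TAPBP, which encodes tapasin and was also picked out afterwards, had 3.92 and 3.05 FPKM in sh-NC cells and 5.96 and 6.14 FPKM in sh-CEBPG#3 cells. HLA genes share near-identical sequence, so their values are uncertain.

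**Figure D4:**
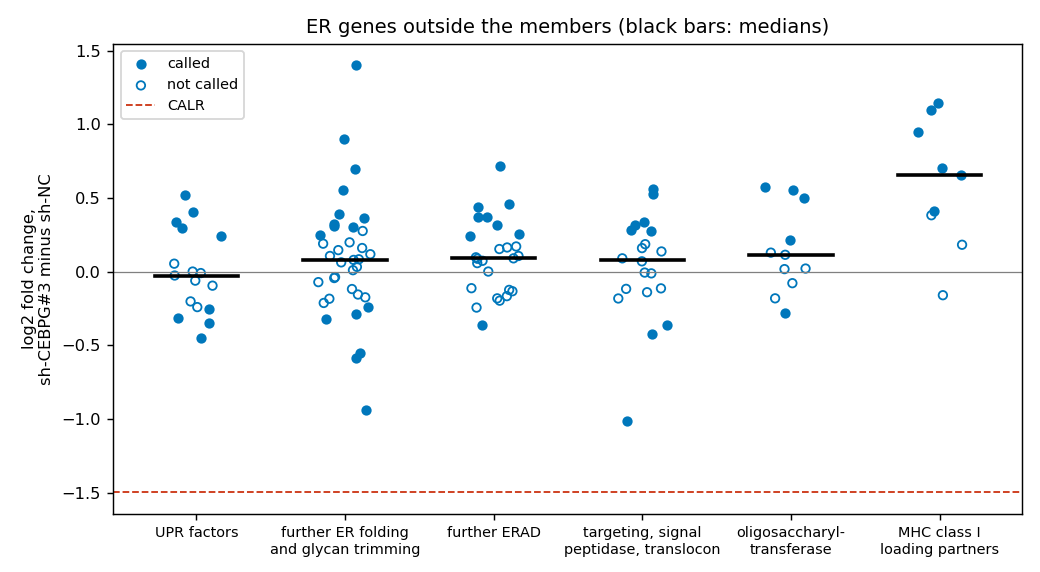
Log2 fold change, sh-CEBPG#3 minus sh-NC, of each tested gene in the 6 lists outside the members, with filled points for called genes, open points for those not called, a black bar for each median and a dashed line at the value of CALR. Medians run from -0.03 for the UPR factors to 0.66 for the MHC class I loading partners, and no gene of these lists reaches the line at -1.50.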

How the data were processed

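RNA-seq of 4 MV4-11 libraries was used. Reads were filtered by the authors and mapped with HISAT2 2.0.5 to hg38 (per the submitters' processing notes), and the deposited FPKM values stand 1 per RefSeq transcript and library. The counting program, RefSeq release and strand setting are not given in the sources used here.

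Of 28780 rows, 28581 had values, and these were summed by symbol to 16490 genes. Genes averaging 0.5 FPKM or more (12142) were fitted as log2(FPKM + 1) with limma 3.58.1 in R 4.3.3 (trend, no block) on all 4 libraries, and p-values were adjusted over all genes by the Benjamini-Hochberg method. The authors used DESeq2, which takes counts, and no count test was run. FPKM carry no read counts, so no depth or detection floor is given.

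The members and lists were chosen with earlier results of these data known. Named are all members, CEBPG, some of the RefSeq rows with at least 10% of a gene, and the 2 largest called changes of each further list. Promoters came from RefSeq (GRCh38.p14) and were searched with Python 3.11.15. Protein sequences were not used here. The pairing of replicate numbers was checked by correlating how libraries with 1 number depart from their group means (r = 0.061 across genes). Alternatives were other pseudocounts, filters and scalings, the most abundant row, the replicate block and each library left out.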

Additional observations from a re-analysis of the deposited data

How the results depend on the processing

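CALR was called lower under all 8 alternatives and without each library in turn, with log2 fold changes from -1.54 to -1.50 and from -1.56 to -1.44. The lone library that then remains in a group is assumed to vary like the other group. The counts of members lower and higher, 9 and 18, fell to 3 and 9 when the most abundant RefSeq row was tested among all rows, where 5.38% and 5.34% of all genes were called. They rose to 11 and 22 with quantile normalization and to 12 and 20 with equal totals, and ranged from 7 to 9 and from 13 to 18 without each library. With the replicate number as a block 8 were lower and 15 higher, and HYOU1, DNAJC3, PDIA4 and SEC61B lost their calls. Same-numbered libraries deviated with a correlation of 0.061, so the number is not taken as a pairing. The share of CALR among folding members in sh-NC cells, 40.1%, was 39.5% with quantile normalization and 40.9% with the most abundant rows, and that in sh-CEBPG#3 cells, 16.5%, was 16.9% with the most abundant rows. The median log2 fold change of the other 24 folding members, examined under the same settings after the data were seen, lay between 0.22 and 0.31.

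Directions turned only for members that were not called. With quantile normalization DNAJB11 was -0.0269, P4HB -0.0491 and ERO1B 0.0251, with equal totals DNAJB11 was -0.0126 and SEC63 -0.0129, and with the most abundant row UGGT1 was 0.43, DNAJC10 -0.0317 and SSR3 0.0453. Without each library in turn the ranges crossed 0 for DNAJB11 (-0.0796 to 0.106), P4HB (-0.0135 to 0.126), ERO1B (-0.0358 to 0.00525), EDEM2 (-0.0133 to 0.0839), EIF2AK3 (-0.121 to 0.166), SEC63 (-0.0391 to 0.0644) and SSR3 (-0.136 to 0.00493). What caused these turns was not tested.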

Other observations

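The rows of some members divide a stable sum differently in libraries of 1 group. SSR3 had 31.4 and 25.2 FPKM in its row NM_007107 and 0.663 and 6.72 FPKM in NM_001308197 in the sh-NC libraries, while its sum was 32.4 and 32.9 FPKM. DNAJC10 had 11.3 and 8.13 FPKM in NM_018981 and 0.876 and 4.04 FPKM in NR_073365 in the same libraries, with a sum of 13.3 and 13.9 FPKM.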
